A study of Mus musculus with 6 samples.

Results

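The H3K79me2 peaks over 8 genes of sympathetic and neuroblastoma identity were read in N2a, an established cell line from a mouse neuroblastoma. The genes were 5 transcription factors (Phox2a, Hand2, Gata2, Gata3 and Isl1), 2 receptor tyrosine kinases (Alk and Ret) and 1 enzyme (Th), out of 55450 genes of the annotation, of which 21951 are protein-coding. They were taken by name, and the question was which of them carry the mark. For each gene, every peak that overlapped the gene body or the 3 kb before its start (the window) was collected from a broad and a narrow peak list of each library, on the mouse build mm10 (GRCm38) with GENCODE mouse release 21. Cells had been transfected with a control shRNA plasmid (CTR) or with an shRNA plasmid against Npm1 (NPM1 KD), which lowers the nucleolar histone chaperone NPM1. All cells, CTR included, were put under 9.3 µg/ml puromycin 24 h after transfection and were harvested at 3 days in vitro. The 2 libraries of each group were made with the same H3K79me2 antibody, and each replicate was another passage of the line and another transfection according to the methods of the study. Where a pair of values is given for a group, it is that of library 1 and then of library 2. The knockdown leaves part of the protein, and peak lists do not show how much. The peaks describe a whole culture, so fewer marked cells and less mark per cell cannot be told apart.

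H3K79me2 is the dimethylated form of lysine 79 in the core of histone H3. DOT1L is the enzyme that writes it, and the mark lies over the start and the first part of genes that are being transcribed. Sympathetic neurons and chromaffin cells arise from neural crest under PHOX2 homeodomain factors, the bHLH factor HAND2, the zinc finger factors GATA2 and GATA3 and the LIM homeodomain factor ISL1. The same factors form the core circuitry that holds neuroblastoma cells in their adrenergic state. ALK and RET are surface receptors of this lineage, ALK being the kinase most often mutated in familial neuroblastoma, and TH catalyses the rate-limiting step of catecholamine synthesis.

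The sequences at the starts of 4 of the genes are printed because the peaks met them in different ways, from whole coverage (Phox2a and Hand2) through the edge of a domain (Gata3) to a weak call that was missing in 1 library (Th). Each is the RefSeq promoter on GRCm38.p6, 250 bases before to 50 bases after the start, in the direction of the gene. They lie at chr7:101818063-101818362 on the plus strand (Phox2a), chr8:57320733-57321032 on the plus strand (Hand2), chr2:9878551-9878850 on the minus strand (Gata3) and chr7:142899946-142900245 on the minus strand (Th). Capitals mark the letters CANNTG, the E-box core that bHLH factors such as HAND2 recognise, and GATAA, a core that GATA factors recognise, on either strand.
Phox2a: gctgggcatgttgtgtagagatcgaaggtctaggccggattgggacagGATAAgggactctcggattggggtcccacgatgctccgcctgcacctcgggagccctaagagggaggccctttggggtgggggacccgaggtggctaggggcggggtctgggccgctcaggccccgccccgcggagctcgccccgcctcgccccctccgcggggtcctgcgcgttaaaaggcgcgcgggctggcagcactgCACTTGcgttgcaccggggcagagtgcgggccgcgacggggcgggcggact
Hand2: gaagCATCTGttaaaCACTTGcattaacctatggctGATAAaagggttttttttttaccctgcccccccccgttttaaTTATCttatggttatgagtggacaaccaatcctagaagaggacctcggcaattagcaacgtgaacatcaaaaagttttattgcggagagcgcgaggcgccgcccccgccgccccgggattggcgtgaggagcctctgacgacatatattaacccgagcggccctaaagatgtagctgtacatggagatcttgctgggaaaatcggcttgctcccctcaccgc
Gata3: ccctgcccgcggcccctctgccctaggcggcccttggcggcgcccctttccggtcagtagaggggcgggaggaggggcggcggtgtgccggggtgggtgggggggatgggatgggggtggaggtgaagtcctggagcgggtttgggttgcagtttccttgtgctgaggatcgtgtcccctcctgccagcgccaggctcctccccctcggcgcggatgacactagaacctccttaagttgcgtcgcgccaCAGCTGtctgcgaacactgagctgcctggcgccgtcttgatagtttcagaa
Th: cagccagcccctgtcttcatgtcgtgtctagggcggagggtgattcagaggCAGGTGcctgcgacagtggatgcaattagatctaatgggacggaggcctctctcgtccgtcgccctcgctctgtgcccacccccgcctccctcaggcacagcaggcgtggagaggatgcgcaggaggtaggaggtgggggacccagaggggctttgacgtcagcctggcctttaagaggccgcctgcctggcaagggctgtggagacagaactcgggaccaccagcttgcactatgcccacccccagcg

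The Hand2 sequence held 2 E-boxes and 2 GATAA matches, and that of Phox2a 1 of each. Those of Gata3 and Th held 1 E-box and no GATAA. Of all 32851 RefSeq promoters of this length, 72.3% held CANNTG and 25.4% held GATAA, so a match to either is common and is given only as a description. In CpG dinucleotides the 4 sequences ranged from 15 (Th) and 17 (Hand2) to 22 (Gata3) and 30 (Phox2a), against a median of 7 over all promoters. The remaining promoters on hand, 2 of Gata2 and 1 each of Isl1 and Alk, held 28 to 37 CpG.

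All 8 genes had a region called in both CTR libraries and in both NPM1 KD libraries of the broad lists, a state found in 51.2% of protein-coding genes. With peaks held to a −log10 q of at least 5, 7 of 8 remained in both groups, Th being the exception, against 44.7% of protein-coding genes. The same 7 had at least 10% of their window covered in all 4 broad lists, against 44.5%. A protein-coding gene had a median of 3.64% of its window covered over the 4 libraries, and 10088 of 21951 had none. The median of the 8 genes was 83.8%. Phox2a, Hand2 and Gata2 were covered over more than 90% of their length, which 5.42% of protein-coding genes were. No test was run on these shares, because the genes were chosen by name, with earlier results of these data known, and not drawn at random.

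**Figure D1:**
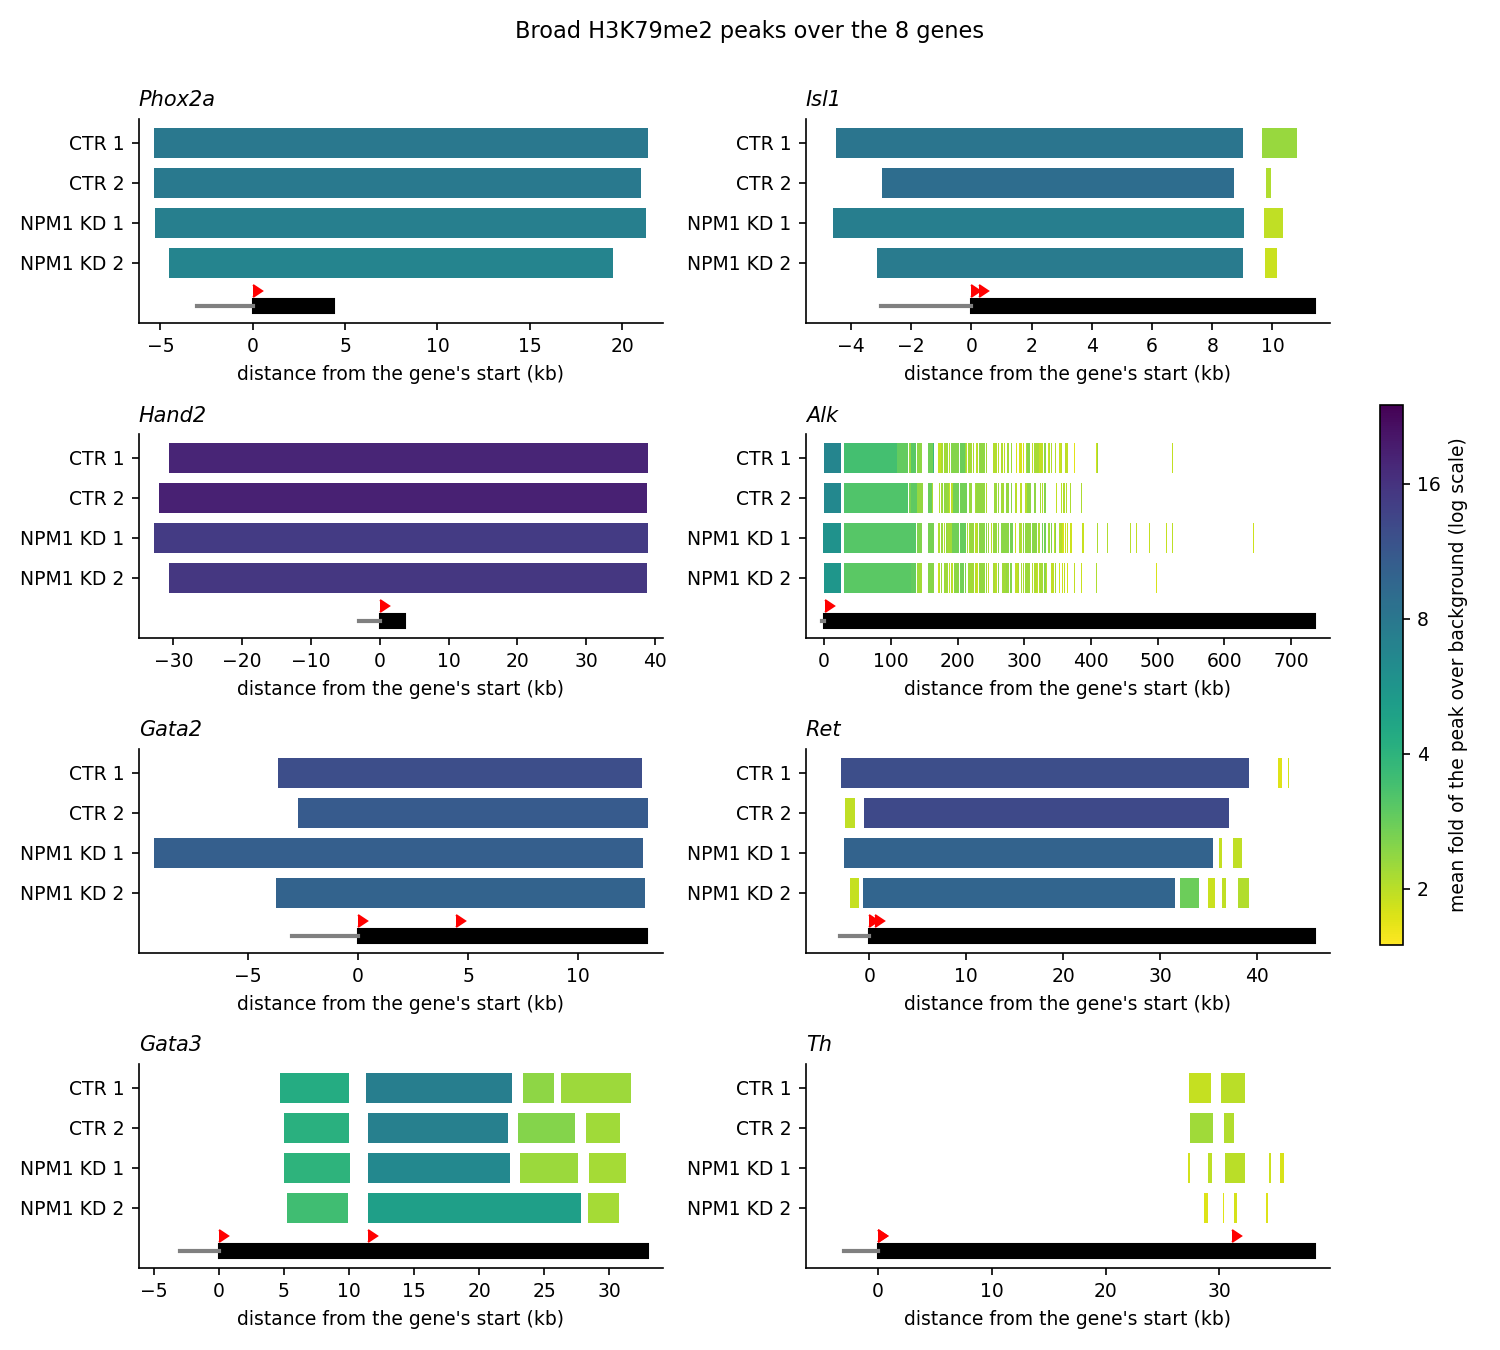
Broad H3K79me2 peaks over each gene by distance from its GENCODE start (kb, horizontal axis), with 1 row per library and the colour giving the peak's mean fold over background on a log scale. Black bars are gene bodies, grey lines the 3 kb upstream, red triangles the starts of coding transcripts. A single domain spanned Phox2a, Hand2 and Gata2, the Gata3 domain began at the inner start, the Alk peaks lay mostly within 400 kb of its start, and Th had only short pale peaks near its inner start.

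The depth behind these values differed between libraries. The background pileup, the number of fragments that MACS2 takes as background at a position, was recovered from fold and p and came to 11.9 and 7.65 in CTR, and 8.99 and 11.8 in NPM1 KD. It is a relative measure of depth, and each group had a deeper and a shallower library. The broad lists held 34845 to 48764 peaks and the narrow lists 73801 to 88348, with CTR 2 lowest in both. A summit fold is the pileup plus 1 at the tallest point of a narrow peak, over the background plus 1.

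**Figure D2:**
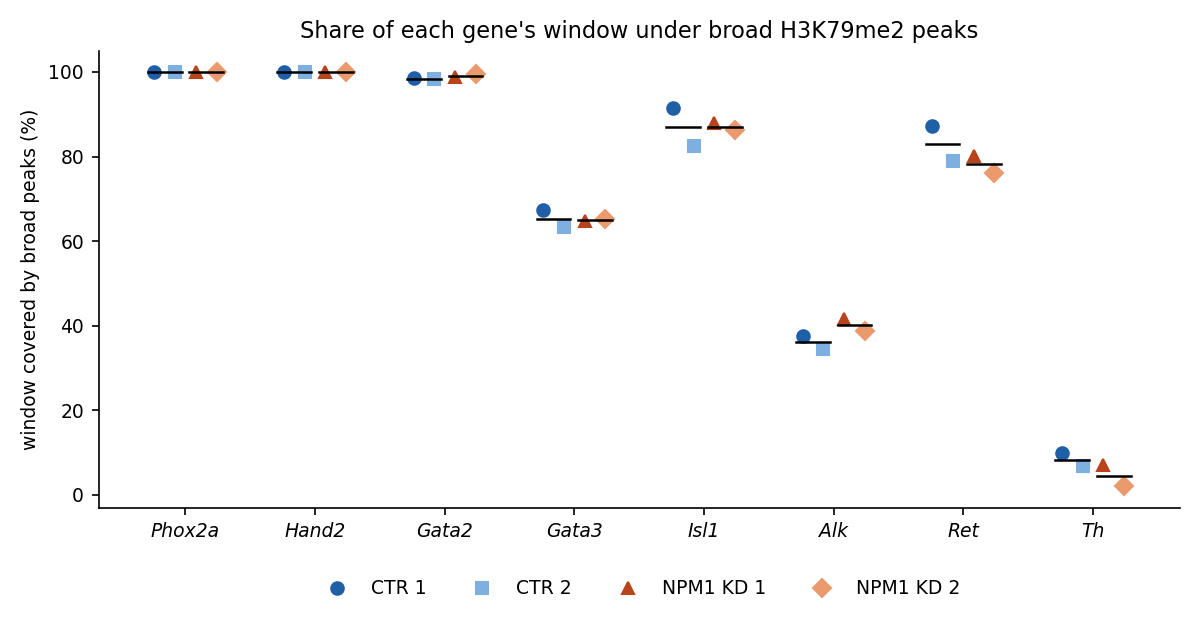
Share of each gene's window (body plus 3 kb upstream) under broad H3K79me2 peaks, in percent, for the 4 libraries (points) with the mean of each group of 2 (black lines). Phox2a and Hand2 were at 100% in all libraries, Alk lay between 34.4% and 41.7%, and Th between 2.103% and 9.87%.

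Among the transcription factors, Phox2a (ENSMUSG00000007946.11, chr7:101818313-101822726, plus strand), a homeodomain factor that acts on genes of the noradrenergic phenotype, was covered over 100% of its 7.41 kb window in all 4 libraries. Its broad peak began 4.51 to 5.36 kb before the start and ended 19.5 to 21.4 kb after it, far past the 4.41 kb gene. The far part ran over Inppl1, a phosphoinositide phosphatase gene on the other strand. ChIP signal has no strand, so the shares of Phox2a and Inppl1 of this domain cannot be told apart. The summit, however, lay 363, 328 and 337 bp past the Phox2a start in CTR 1, CTR 2 and NPM1 KD 1, in its first coding exon, and 757 bp past it in NPM1 KD 2, in an intron. The summit fold was 33.2 and 35.4 in CTR, and 27.4 and 24.1 in NPM1 KD. Both NPM1 KD libraries lay below both CTR libraries. The summit pileup behind these folds was 427 fragments (exact Poisson 95% interval 387 to 469), 305 (272 to 341), 273 (242 to 307) and 307 (274 to 343) in the same order, and these intervals cover counting error only.

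Hand2 (ENSMUSG00000038193.4, chr8:57320983-57324633, plus strand), which codes for a bHLH factor needed for sympathetic neuron differentiation, had the highest summit of the 8. A single broad peak of 69.7 kb and 70.8 kb in CTR, and of 71.8 kb and 69.4 kb in NPM1 KD, covered it, from 30.6 to 32.9 kb before the start to 38.8 to 38.96 kb past it. The gene itself is 3.65 kb long. No other protein-coding gene lies under the domain. It takes in the divergent transcript Hand2os1 and the long noncoding RNA gene 5033428I22Rik, and the summit lay over the latter, 19962 to 20006 bp past the Hand2 start in all 4 libraries. The summit fold was 61.0 and 56.3 in CTR, and 46.2 and 38.8 in NPM1 KD. It was the highest of the 8 genes in every library, and both NPM1 KD libraries were below both CTR libraries. At this summit the background of NPM1 KD 1 was 9.53, not the 8.99 of its other peaks. In its own list this peak ranked 54th of 85655, 47th of 73801, 139th of 88348 and 85th of 85057 narrow peaks by fold. Because the summit is outside the window, the value belongs to the domain that covers Hand2 rather than to the gene body, and with summits held to the window Hand2 had none.

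Gata2 (ENSMUSG00000015053.14, chr6:88193891-88207032, plus strand), a zinc finger factor of sympathetic and blood precursors, was covered over 98.6%, 98.2%, 98.8% and 99.5% of its 16.1 kb window in CTR 1, CTR 2, NPM1 KD 1 and NPM1 KD 2. The NPM1 KD libraries were the higher ones. Gata2 has coding transcripts from an outer start and from an inner start 4.44 kb further on, and both were inside the domain. The summit lay 670, 743, 1280 and 711 bp past the inner start in the 4 libraries in the same order. The summit fold was 35.5 and 31.9 in CTR, and 33.3 and 24.5 in NPM1 KD, so the groups overlapped through NPM1 KD 1, which lay above CTR 2.

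Gata3 (ENSMUSG00000015619.10, chr2:9857078-9890034, minus strand), the paralogue that maintains sympathetic neurons and their catecholamine enzymes, was covered over 67.4%, 63.3%, 64.8% and 65.2% of its 36.0 kb window in the 4 libraries. The groups overlapped. The share depends on which start the annotation takes. GENCODE places an outer start at the gene's edge, and no broad or narrow peak fell within 1 kb of it in any library. The principal transcript starts 11.4 kb further in, and the strong part of the mark began there, at 11.3 kb and 11.5 kb in CTR, and 11.5 kb and 11.4 kb in NPM1 KD. The promoter printed above sat on this edge, with 66.7% of its 300 bases under a broad peak in CTR 1 and 3.33%, 8.00% and 12.3% in CTR 2, NPM1 KD 1 and NPM1 KD 2. A separate peak, which began 4.73 to 5.20 kb and ended 9.94 to 10.1 kb past the outer start, lay between the 2 starts and overlapped 2 other protein-coding genes, 4930412O13Rik on the other strand and 9230102O04Rik on the strand of Gata3. The Gata3 summit lay 1059, 1065, 1109 and 1322 bp past the principal start, with an antisense gene (Gm13256) on the same bases, and had a fold of 20.4 and 19.4 in CTR, and 19.0 and 15.02 in NPM1 KD. Both NPM1 KD libraries were the lower ones, NPM1 KD 1 by little.

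Isl1 (ENSMUSG00000042258.13, chr13:116298281-116309689, minus strand), a LIM homeodomain factor of sympathetic, motor and sensory neurons, was covered over 91.5%, 82.5%, 88.0% and 86.2% of its 14.4 kb window in CTR 1, CTR 2, NPM1 KD 1 and NPM1 KD 2. The CTR libraries were the highest and the lowest. A domain of 11.7 to 13.6 kb ran from before the start to 8.74 to 9.05 kb past it, and only a short weak peak lay further on. No other gene lies under it. The summit was before the start, by 488, 487 and 571 bp in CTR 1, CTR 2 and NPM1 KD 1, but 3.40 kb past the start in NPM1 KD 2, in an intron. The summit fold was 19.4 and 19.1 in CTR, and 17.1 and 15.5 in NPM1 KD, again with both NPM1 KD libraries below both CTR libraries.

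Of the receptors, Alk (ENSMUSG00000055471.7, chr17:71868972-72604627, minus strand), the receptor of the ALKAL ligands, is the longest of the 8 genes at 736 kb. It was covered over 37.7% and 34.4% of its window in CTR, and over 41.7% and 38.9% in NPM1 KD. Both NPM1 KD libraries were above both CTR libraries, with means of 40.3% ± 2.01 and 36.0% ± 2.29 (SD, n = 2). The covered part was not spread evenly. The first 50 kb of the body were covered over 90.4% to 90.5% in the 4 libraries, and the next 50 kb over 100% in all of them. Between 300 and 350 kb the range was 42.8% (CTR 2) to 68.0% (NPM1 KD 1), between 350 and 400 kb it was 14.3% to 26.3%, and from 650 kb on no base was covered in any library. In every 50 kb from 150 to 400 kb the lowest of the 4 was CTR 2, the shallowest library by background, and the part of depth in this was not tested. In height, the first domain ended 24.99 to 25.07 kb past the start and held the summit, within 2.31 kb of the start in all libraries. Its fold was 23.4 and 18.7 in CTR, and 17.8 and 12.9 in NPM1 KD. Between 50 and 100 kb the highest narrow peak was only 6.52, 7.05, 7.21 and 7.20 in the same order, and the NPM1 KD libraries were not the lower ones there. No other protein-coding gene lies under the Alk peaks common to the 4 libraries.

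Ret (ENSMUSG00000030110.13, chr6:118151745-118197718, minus strand), the signalling receptor for the GDNF family of ligands, was covered over 87.1%, 78.98%, 80.2% and 76.1% of its 49.0 kb window in CTR 1, CTR 2, NPM1 KD 1 and NPM1 KD 2. The groups overlapped. The main domain reached 39.2 kb past the start in CTR 1 and 37.1 kb in CTR 2. In NPM1 KD 1 it reached 35.4 kb, and in NPM1 KD 2 31.5 kb. Short broad calls went on to 43.3 kb in CTR 1, 38.5 kb in NPM1 KD 1 and 39.1 kb in NPM1 KD 2, but not in CTR 2. The last covered base therefore did not separate the groups. The last part of the 46.0 kb gene was bare but for short calls. The summit took one of 2 places, 837 and 851 bp past the start in CTR 1 and NPM1 KD 1, and 5.31 and 5.27 kb past it in CTR 2 and NPM1 KD 2, in introns. The summit fold was 46.1 and 43.9 in CTR, and 35.9 and 28.3 in NPM1 KD. Both NPM1 KD libraries lay below both CTR libraries, and Ret had the second highest fold of the 8 genes in every library. The pileup was 593 fragments (95% interval 546 to 643), 379 (342 to 419), 358 (322 to 397) and 361 (325 to 400) in this order.

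Th (ENSMUSG00000000214.11, chr7:142892752-142931128, minus strand), the tyrosine hydroxylase gene, was the exception among the 8. Its broad peaks covered 9.87% and 6.86% of the 41.4 kb window in CTR, and 7.02% and 2.103% in NPM1 KD. NPM1 KD 2 was the lowest, and the groups overlapped. No base of the window was covered in all 4 libraries, and none of its broad peaks reached a −log10 q of 5, although 1 narrow peak of CTR 1 did. The gene has an outer start with no peak within 1 kb, and a principal start 31.1 kb further in, around which the peaks gathered. Within 1 kb on either side of the principal start 99.1%, 41.5%, 81.9% and 19.1% of bases were covered in CTR 1, CTR 2, NPM1 KD 1 and NPM1 KD 2. The promoter printed above was whole under a broad peak in CTR 1, CTR 2 and NPM1 KD 1, and untouched in NPM1 KD 2. The summit fold was 2.56, 2.66, 2.303 and 1.88 in the same order, with both NPM1 KD libraries lower. These folds are not those of 1 shared summit. The summit lay 13 bp before the principal start in CTR 1 and 3451 bp before it in CTR 2. In NPM1 KD 1 it lay 1974 bp before that start, and in NPM1 KD 2 251 bp past it. The highest fold was tied among 2 peaks in CTR 2 and among 3 in NPM1 KD 1. The pileup was 32 fragments (95% interval 21.9 to 45.2), 22 (13.8 to 33.3), 22 (13.8 to 33.3) and 23 (14.6 to 34.5), and these intervals overlap throughout. In CTR 1 the Th peak stood at the 50.7th percentile of narrow peaks by fold, in CTR 2 at the 39.7th, in NPM1 KD 1 at the 25.8th and in NPM1 KD 2 at the 5.08th. By the gene bounds of RefSeq, which leave out the outer start, Th was 10.2 kb with its upstream part and 31.9%, 20.6%, 26.4% and 8.52% covered, so the low share depends in part on the annotation and the low fold does not.

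**Figure D3:**
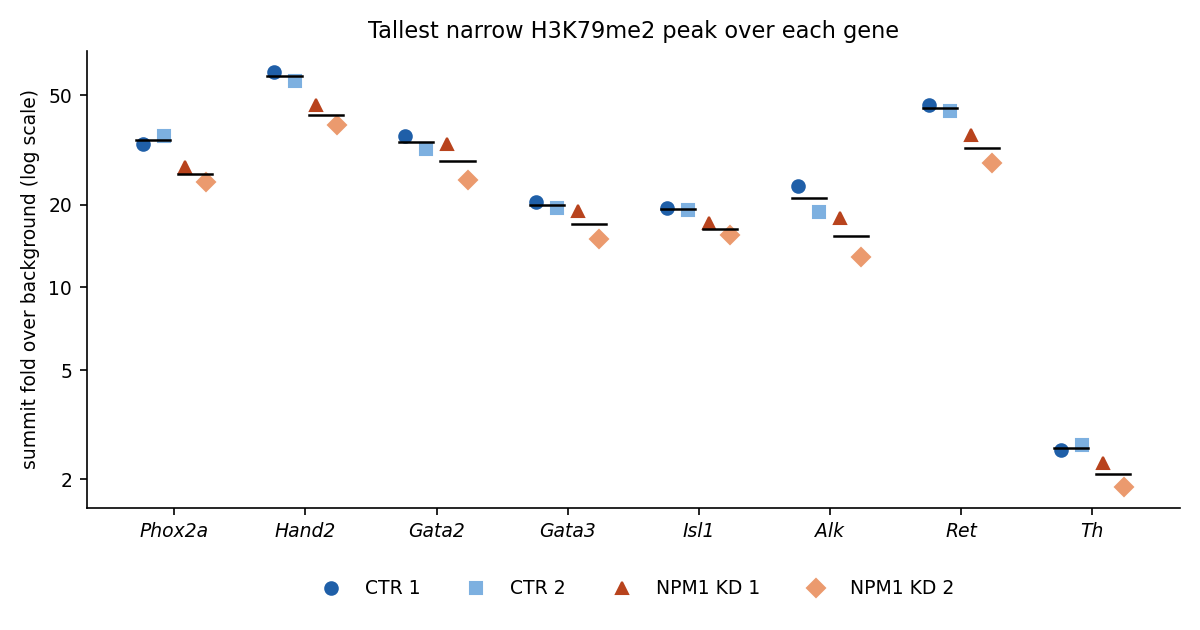
Fold over background at the summit of the tallest narrow peak over each gene (log axis) in the 4 libraries (points), with the mean of each group of 2 as a black line. Hand2, by a summit outside its window, was highest and Th lowest in every library. The NPM1 KD points lay below the CTR points in every gene but Gata2.

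Set in order by mean summit fold over the 4 libraries, Hand2 (50.6) came first, then Ret (38.6), Gata2 (31.3), Phox2a (30.0), Gata3 (18.5), Alk (18.2), Isl1 (17.8) and Th (2.35). The Hand2 value is that of a summit outside its window, so its place is that of the domain over it. Hand2, Ret and Th held the first, the second and the last place in each library. Gata2 and Phox2a changed places between libraries, as did Gata3, Alk and Isl1, so those neighbours did not differ beyond the spread of the libraries. By covered share the order was another one, with Phox2a and Hand2 level at 100%, Gata2 at 98.8%, Isl1 at 87.0%, Ret at 80.6%, Gata3 at 65.1%, Alk at 38.2% and Th at 6.46%. Isl1 and Ret overlapped in their ranges, 82.5% to 91.5% and 76.1% to 87.1%, and the other neighbours did not.

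The starts themselves were mostly inside the mark. Of the 8 RefSeq promoters on hand for the genes (2 of Gata2, none of Ret), those of Phox2a, Hand2, Gata2, Isl1 and Alk were covered whole in all 4 broad lists, which held for 15.2% of all promoters. Those of Gata3 and Th were not. In GENCODE terms, 6 of 8 genes had a common region of both libraries within 1 kb of the gene start, in CTR and in NPM1 KD alike. The 2 without were Gata3 and Th, whose outer starts carried none. The share of all protein-coding genes with such a region is not given here, so the 6 are a description only.

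Other genes of the sympathetic programme were read from fixed lists. Of 14 other transcription factors of the lineage, 8 had a common region in both groups, a share near the 51.2% of protein-coding genes. Klf7 was at a mean of 99.0%, while Hand1, the paralogue of Hand2, was among those with none, as were Tfap2b, Eya1, Dach1 and Zfp536. Hey1 was more covered in both NPM1 KD libraries than in both CTR libraries, with means of 81.3% against 70.9%, an order that 38.7% of all genes tested showed, and Klf7 less, with 98.8% against 99.3%, as 3.14% of genes were.

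Of 13 genes of catecholamine synthesis, storage and transport, the pathway of TH, 7 had a common region in both groups, again near the 51.2% of protein-coding genes. Gch1, which makes the cofactor of TH, was among the most covered, at 79.7%. Dbh and Pnmt, which act after TH in the making of noradrenaline and adrenaline, were uncovered in every library, as were Slc6a2, Slc6a3 and Maoa. Ddc, the enzyme that follows TH, was at 0 in both CTR libraries and at 4.52% and 4.64% in the NPM1 KD libraries, by peaks that did not reach a −log10 q of 5. Scg2 was less covered in NPM1 KD, with a mean of 60.6% against 62.9%.

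Of 15 receptors and ligands, 6 had a common region in both groups and 4 did so at a −log10 q of 5, where 51.2% and 44.7% of protein-coding genes did. The midkine gene Mdk was at 100% in all libraries and Ngfr at a mean of 67.3%. The ALK ligand genes Alkal1 and Alkal2 and the related kinase Ltk had no peak, nor had the RET ligand genes Gdnf and Nrtn and the coreceptor genes Gfra2 and Gfra3. Gfra1, the GDNF coreceptor, was at 1.53% to 6.51%, and Artn had a peak in NPM1 KD 1 alone. Ntrk2 was also bare. Gfra1 was more covered in both NPM1 KD libraries than in both CTR libraries, with means of 5.16% against 2.52%, and Ptn less, with 23.0% against 26.2%.

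**Figure D4:**
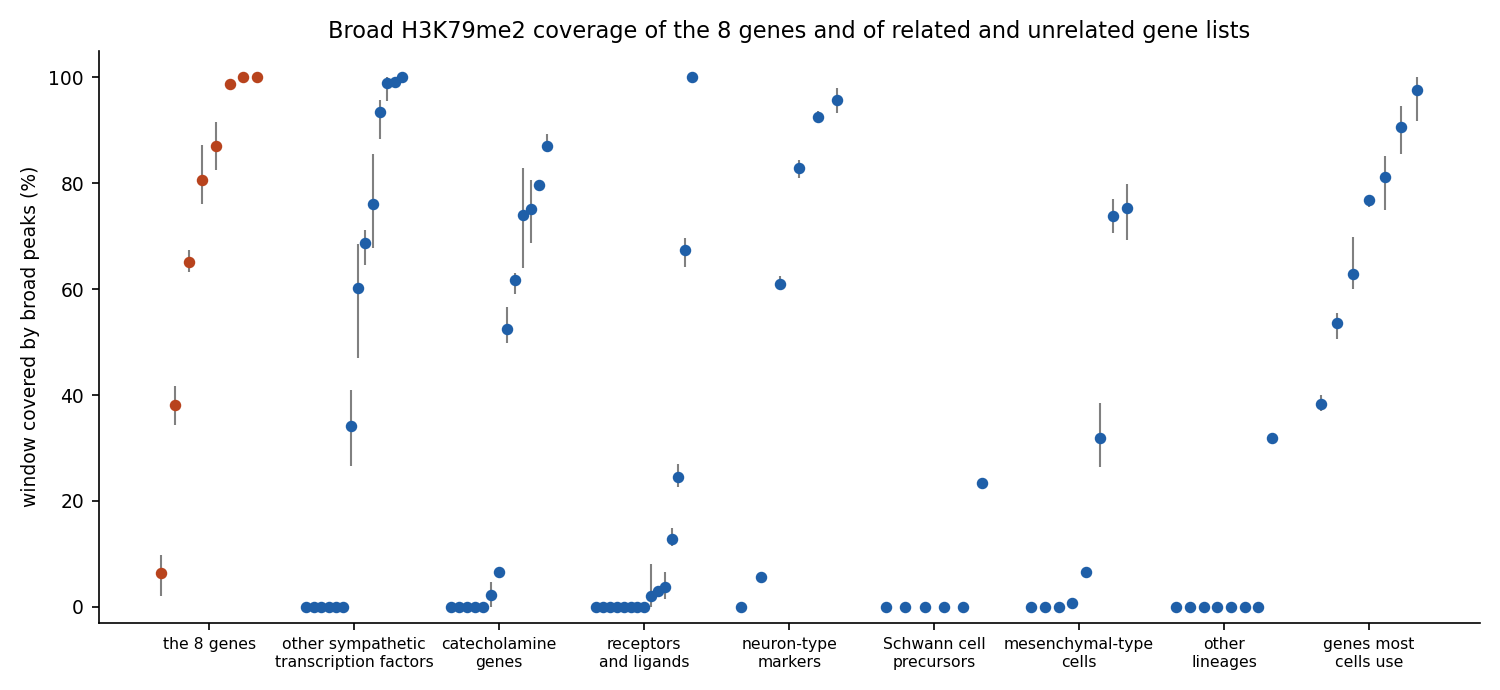
Share of each gene's window under broad H3K79me2 peaks (percent), with 1 point per gene at the mean of the 4 libraries and a line from the lowest to the highest library, for the 8 genes (red) and for 8 other gene lists (blue). Most markers of Schwann cell precursors and of other lineages sat at 0, and the genes most cells use lay at 36.9% or more in every library.

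Marker lists were read the same way to check the label of the line. Of 6 neuron-type markers 5 had a common region in both groups, against the same 51.2% of protein-coding genes, with Tubb3 at 95.6% and Gap43 at 92.5%, Map2 at 5.56% and Nefl at 0. Elavl4 was higher in both NPM1 KD libraries, with 61.8% against 60.1%. Of 6 markers of Schwann cell precursors 1 was marked, and Sox10, Foxd3, S100b and Erbb3 were at 0. Of 8 markers of mesenchymal-type neuroblastoma cells 4 were marked, Vim (75.4%) and Fosl2 (73.7%) most, and Prrx1, Snai2 and Twist1 were at 0. Of 8 markers of other lineages 1 was marked (Nkx2-5, at 31.8%), with Alb, Ptprc and the rest at 0. Of 7 genes that most cells use all 7 were marked, from Hprt at 38.4% and Polr2a at 53.7% to Gapdh at 90.5% and Actb at 97.5%. In this last list 4 of 7 were more covered in both NPM1 KD libraries, against 38.7% of all genes tested, with means of 94.6% against 86.5% for Gapdh, 55.1% against 52.2% for Polr2a, 39.3% against 37.5% for Hprt and 83.9% against 78.3% for Tbp. Their part in the differences over the 8 genes was not tested.

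The likeness of the genes to the 42 other sympathetic genes was taken as the mean absolute difference in covered share over all 8 lists. Gata2 was nearest to Klf7, at 0.912 percentage points, Ret to Gch1, at 2.97 points, and Gata3 to Scg2, at 4.37 points. Th was nearest to Slc18a1 (2.76), a vesicular monoamine transporter gene that was covered over 6.65% of its window. In height the 2 were unlike. The tallest narrow peak over Slc18a1 had a fold of 23.8 to 28.2, against 1.88 to 2.66 for Th. The likenesses given are of coverage in the same 4 libraries only.

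The knockdown was then compared with CTR, first by extent. Both NPM1 KD libraries covered more of the window than both CTR libraries in 2 of the 8 genes, Gata2 by 0.737 and Alk by 4.25 percentage points, and in 38.7% of the 18781 genes tested. The Gata2 difference was -0.171 points over the gene body without the 3 kb upstream. That of Alk was 0.634 points at a −log10 q of at least 5, where its groups overlapped, with 21.2% and 17.6% in CTR, and 20.9% and 19.2% in NPM1 KD. In the broad lists none of the 8 was lower in both NPM1 KD libraries, against 3.14% of genes. In the narrow lists Th was, with 5.92% and 4.92% in CTR, and 1.64% and 0.358% in NPM1 KD, while Gata2 and Alk were again the higher ones in NPM1 KD. The exact permutation test over the 4 libraries (two-sided) cannot go below p = 0.333, the value it gave for Gata2 and Alk, and it gave 0.667 for Ret and Th and 1 for the others. A limma fit on log2(covered bp + 1000) over all genes with a broad peak called 5 genes at an adjusted p under 0.05, which is 0.0266%, all of them higher in NPM1 KD, and none of the 8. In that fit the change of Alk was 0.16 ± 0.07 (log2, SE, n = 2 per group, limma adjusted p = 0.516), where the median of all genes was 0.06. Th had the lowest value of the 8, -0.71 ± 0.51 (limma adjusted p = 0.669), which is not distinguishable from the spread of its libraries. Ret was at -0.08 ± 0.07, and the other 5 lay between -0.01 and 0.01. Phox2a and Hand2 were at 100% in every library and so could not be higher in NPM1 KD, and Gata2 had little room to be.

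Height was compared next. In 7 of the 8 genes the summit fold was lower in both NPM1 KD libraries than in both CTR libraries, Gata2 being the exception. For Hand2 this summit lay outside the window, and for Th it was a weak peak at a different place in each library. Over all 17231 genes with a narrow peak in each library the share was 28.9%, and among the 10757 genes with a mean summit fold of at least 10, as all of the 8 but Th had, it was 38.3%. The opposite order, both NPM1 KD libraries above, was found in 10.0% and 4.05% of the same genes and in none of the 8. The log2 changes were -0.50 ± 0.17 for Ret, -0.47 ± 0.16 for Hand2, -0.47 ± 0.22 for Alk, -0.41 ± 0.15 for Phox2a and -0.33 ± 0.16 for Th (limma, SE, n = 2 per group). Those of Isl1, Gata3 and Gata2 were -0.24 ± 0.14, -0.24 ± 0.17 and -0.24 ± 0.19. The median over all genes tested was -0.09, and over those of mean fold 10 or more -0.14. Ret, Hand2, Alk and Phox2a lay at the 1.76th, 2.31st, 2.40th and 3.97th percentile of all genes by log2 change, and Gata2 highest of the 8 at the 21.03rd.

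None of these differences passed the adjusted threshold. The limma adjusted p was 0.779 for 7 of the 8 genes and 0.785 for Gata2, and the fit called 24 of 17231 genes (0.139%), 17 higher and 7 lower. At an unadjusted p under 0.05 the fit had 3 of the 8 genes, Hand2 (0.0268), Ret (0.0289) and Phox2a (0.0326), and 740 genes in all. NPM1 KD 2 had the lowest fold of the 4 libraries in all 8 genes. Without it the log2 differences ran from -0.34 (Hand2) to -0.01 (Gata2), and the median over all genes was 0.02 rather than -0.09. The fit then called 150 genes, and without NPM1 KD 1, where that median was -0.19, it called 562, but none of the 8 in either case. The fold is relative to each library's own background, so a change of the same proportion across the whole genome would not show in it. No spike-in value was used here.

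**Figure D5:**
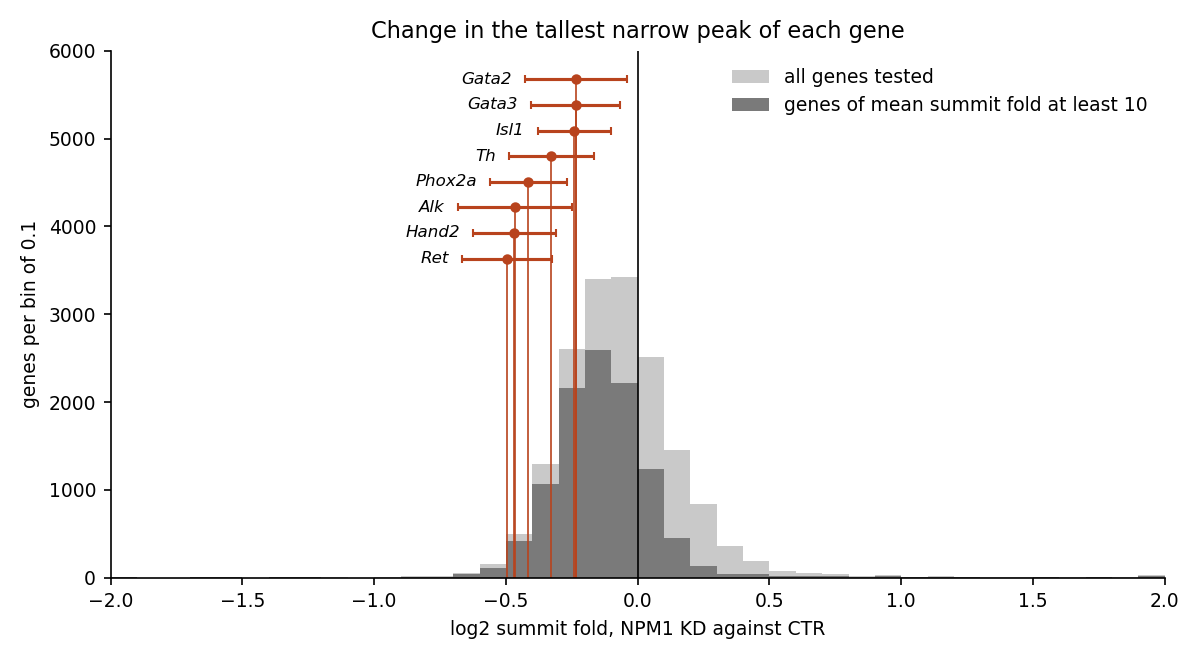
Genes per bin of 0.1 by log2 change in the fold of their tallest narrow peak, NPM1 KD against CTR (horizontal axis), for all 17231 genes tested (light grey) and, drawn over it, those of mean summit fold at least 10 (dark grey), with values past 2 counted in the end bins. Red points with bars are the 8 genes with their limma standard error, from -0.50 for Ret to -0.24 for Gata2, all left of the median of -0.09.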

How the data were processed

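H3K79me2 was measured by ChIP-seq in 4 libraries, 2 CTR and 2 NPM1 KD. Per the methods, fragments read from both ends at 51 bp were mapped to mm10 (GRCm38) with Bowtie2 and kept above a mapping quality of 5, and peaks were called with MACS2 in each library, at default settings. The submitters' processing notes name FastQC 0.11.9, Trimmomatic 0.38, Bowtie2 2.3.4.1, SAMtools, MACS2 2.2.6, ChIPseeker 1.28.3 and deepTools 3.3.2.0.0, and the methods give an older MACS2 release. The authors deposited 1 broad and 1 narrow list per library, with a score, a fold over background, and a −log10 p and −log10 q for each peak as MACS2 gave them. The fold is that of the summit in narrow lists and the mean of the peak in broad lists. The deposited score was read but not used. The 2 inputs, 1 per group, had no lists analysed here. No read totals were analysed, so depth is known only as the background pileup recovered from fold and p, with whole pileups for 100% of the peaks tried (tolerance 0.05).

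Windows, coverage and common regions (merged intervals with a peak of both libraries, overlap of at least 1 bp) were computed with scipy 1.17.1, pandas 2.3.3 and numpy 2.4.6 under Python 3.11.15, and drawn with matplotlib 3.10.9. Extent, log2(covered bp + 1000) for genes with a broad peak in at least 1 library, and height, log2 of the highest narrow fold for genes with a narrow peak in all 4, were fitted with limma 3.58.1 in R 4.3.3 without a block, with Benjamini-Hochberg adjustment and a threshold of 0.05. The recovery of the pileup and the limma fits were tested on simulated data. The genes and gene lists were chosen with earlier results of these data known. Named were all 8 genes, genes that share their peaks, and from each list the 2 most and 2 least covered and those whose groups did not overlap, though some that this rule names are not reported here. Alternatives were narrow lists, a −log10 q of at least 5, other windows, pseudocount, filters and scaling, each library left out, and a replicate block.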

Additional observations from a re-analysis of the deposited data

How the results depend on the processing

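The number of the 8 genes with a common region stayed between 6 and 8 in CTR and in NPM1 KD under all 4 alternatives. The 6 was that within 1 kb of the gene start, for which no share over all genes is given here. The count of genes called for extent, 5, was 0 with narrow lists, 83 at a −log10 q of at least 5, 22 with a pseudocount of 200 bp, 18 with no filter (where limma warned that most variances were 0), 1 among protein-coding genes and 0 without any one library. The count called for summit fold, 24, was 39 with each library's median subtracted, 73 with broad folds, 7 among protein-coding genes, 14 with summits held to the window (chosen after seeing the data), and 40 to 562 with one library left out. It was 46 without CTR 1 and 40 without CTR 2. The count of 562 came without NPM1 KD 1, of which 447 were lower, and the count was 150 without NPM1 KD 2, of which 115 were higher. Same-numbered libraries deviated together only weakly (correlation 0.195 for extent and 0.207 for summit fold across genes). Per the methods each replicate was a separate passage and transfection batch. Whether CTR and NPM1 KD of one number shared that batch is not stated in the sources used here. With the replicate block 0 genes were called for extent and 51 for summit fold, and 4 of the 8 genes kept the sign of their covered share within both numbers. The number of the 8 genes whose covered shares did not overlap between groups, 2, was 1 under that q limit. With 1 library left out it was 2 to 6. Groups of 1 against 2 overlap less easily, so these counts cannot be set against the main count. No share over all genes is given here for these alternatives, nor for the 4 genes that kept their sign. The summit differences of the 8 genes kept their sign and missed the threshold in all 63 alternatives. Among fits on all 4 libraries Ret came nearest, with broad folds (limma adjusted p = 0.200). Much of this was fixed in advance. The block returned the main differences, as did the limit to summits in the window for genes with a summit there. Where the groups did not overlap, leaving out 1 library could not turn the sign. Of 72 alternatives for covered shares 66 moved by no more than the spread between libraries. Leaving out 1 library or adding the block could not move a difference further than that by construction. Phox2a and Hand2 stayed at 100% throughout. The count of 66 is therefore no measure of stability. The difference of Th went from -3.80 to -8.81 percentage points with RefSeq bounds. Under the q limit of 5 that of Th was 0, that of Alk went from 4.25 to 0.634 points and that of Gata3 from -0.382 to 6.76. That of Gata2 went from 0.737 to 1.90 points with narrow lists and to -0.171 without the upstream 3 kb.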
